A study of Mus musculus with 3 samples.

Results

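The actin cytoskeleton was followed here through 45 genes. They were chosen by name for the roles of their proteins and not by any measured value, though with earlier results of these data known. They cover the cytoplasmic actins, the proteins that hold and recycle actin monomers, the Arp2/3 complex and its activators, and the proteins that elongate, cap, sever, bundle, anchor and contract filaments. The intermediate filament gene Vim completed the set. They carry 46 of the 55536 gene entries quantified, because Myl12b has 2 entries, which were added together. The 3 libraries were polyA RNA-seq of whole-cell RNA from primary macrophages of C57BL/6J mice, grown from bone marrow. All 3 had received 100 ng/mL of a stimulus for 480 minutes, named Lipid A in the sample description and lipoprotein A in the treatment field. They are labelled as biological replicates 1 to 3 and as separate biosamples, but carry the same donor label, and sex and age were not collected. They form 1 group, and unstimulated cells were not analysed here, so levels are given as a description and no value here measures a response to the stimulus. Separate cultures or mice behind the replicates are not stated, so tests between libraries measure only the spread of these 3 samples.

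Actin is a globular protein that polymerises into filaments, and macrophages use this to crawl, engulf particles and build adhesive podosomes. Thymosins and profilin hold a reserve of monomers, the Arp2/3 complex starts branches on existing filaments, and formins and Ena/VASP proteins extend them. Capping proteins stop growth, cofilin and coronins promote disassembly, and cross-linkers, linkers to the membrane and nonmuscle myosin give the network its shape and tension.

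The gene tables summed to 26589042, 34344922 and 48356527 expected counts in replicates 1, 2 and 3. All 8 macrophage markers were detected in every library, at 1 or more on the transcripts-per-million scale (TPM), from Itgam, an integrin chain, at 65.1 ± 10.003 TPM (SD, n = 3) to Lyz2, lysozyme, at 12916 ± 2539 TPM. Replicate 2 stood apart in markers of other blood cells. All 10 neutrophil markers were highest there (summed level 28.0, 428 and 25.2 TPM in replicates 1 to 3), with Ly6g, Elane, Mpo and Retnlg at 0 in the other libraries. That list ran from Retnlg at 0.0467 ± 0.0808 TPM to S100a9 at 88.0 ± 129 TPM, and 3 of the 10 were detected in every library. Ly6g and Retnlg rested on 2 counts and 1 count in replicate 2. All 7 megakaryocyte and platelet markers were also highest in replicate 2 (230, 872 and 224 TPM), from Gp1bb at 0.06 ± 0.0557 TPM to Pf4 at 437 ± 366 TPM. Pf4 made up 228, 859 and 223 TPM of that sum and was the only 1 of the 7 detected in every library. Replicate 2 was highest as well for 5 of 7 dendritic cell markers (42.4, 153 and 44.1 TPM). That list ran from Cd209a at 0.05 ± 0.0866 TPM to Ccl22 at 62.6 ± 54.8 TPM. Of all genes tested, 45.2% were highest in replicate 2. Markers of smooth muscle and fibroblasts summed to 3.3, 4.16 and 3.63 TPM, led by Tagln at 1.82 ± 0.176 TPM, with Cnn1 and Des at 0 in every library. T, B and NK cell markers summed to 0.37, 1.5 and 0.23 TPM, with Cd3d and Cd3g at 0 and Cd3e highest at 0.18 ± 0.312 TPM. In bulk RNA, fewer cells of a kind and less RNA per cell cannot be told apart.

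All 45 genes reached 1 TPM in every library, against 17.9% of all gene entries. Their median level was 328 TPM, and that of all 9929 detected genes was 14.0 TPM. Together they took 4.84%, 4.73% and 3.97% of all TPM in replicates 1, 2 and 3 (4.51% ± 0.477, SD, n = 3). Actb and Tmsb4x alone made up 47.5% of that sum. By mean level, 4 of the genes stood among the 50 most abundant genes of the macrophages and 22 among the 500 most abundant, while 16 were under 100 TPM.

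**Figure D1:**
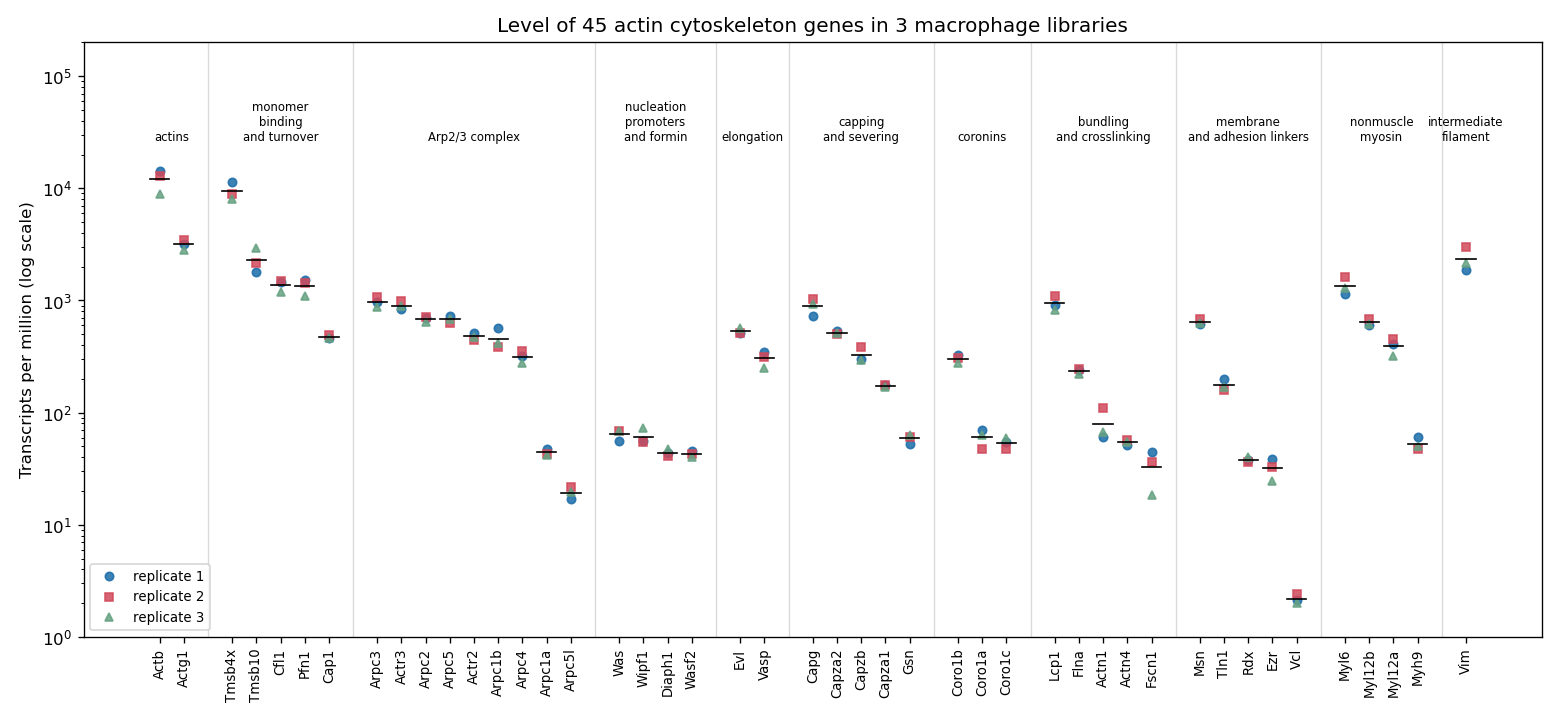
Level of each of the 45 genes (y axis, TPM, log scale) in replicates 1, 2 and 3 (circle, square and triangle), grouped by role along the x axis, with the mean as a bar. Levels run from 2.18 TPM for Vcl to 12008 TPM for Actb, and the 3 libraries of a gene lie close together beside the distance between genes.

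Actb encodes beta-actin and Actg1 gamma-actin, the cytoplasmic isoforms that build the filaments of non-muscle cells. Actb (chr5:142903115-142906754, minus strand, mm10) stood at 14221, 12839 and 8966 TPM in replicates 1 to 3 and ranked 7 among all genes. Actg1 (chr11:120345690-120348542, minus strand) stood at 3199, 3468 and 2821 TPM. In TPM replicate 3 was the lowest library for both, and every Actb value lay above every Actg1 value. The coding sequences of both genes are long stretches of identical bases broken by scattered differences, so the first 60 bases of each, where both proteins are known to differ in amino acids, are shown from GENCODE M21 transcripts, with differing bases in capitals.
Actb: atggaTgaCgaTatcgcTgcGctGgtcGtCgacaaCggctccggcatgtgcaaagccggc
Actg1: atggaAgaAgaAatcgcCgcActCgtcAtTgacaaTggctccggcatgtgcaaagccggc
Over the whole coding sequence, 997 of 1125 bases were identical (88.6%), with a longest shared run of 62 bases. The authors' posterior standard deviation of the count, which measures how firmly reads were assigned, was still under 1% of the count for both. The excess of Actb over Actg1 was 2.15, 1.89 and 1.67 on the log2 scale of TPM + 0.1, a mean of 1.90 ± 0.242 (SD, n = 3). The share of Actg1 within the pair was thus 18.4%, 21.3% and 23.9%. In the authors' second quantification, made from the same reads without an alignment, Actb stood at 10228, 11754 and 7299 TPM and Actg1 at 2218, 3096 and 2233 TPM, both highest in replicate 2. In the quantification from the alignment, the 6 muscle actin and actinin genes Acta1, Acta2, Actc1, Actg2, Actn2 and Actn3 were all below 1 TPM. Acta2, of smooth muscle, was the highest of them there at 0.32, 0.34 and 0.25 TPM, Actg2 averaged 0.0267 TPM, and the rest were at 0 counts. In the second quantification Actn2 was the highest by mean, at 0.72, 0.60 and 1.07 TPM.

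Among the genes for monomer binding and turnover, the thymosins led. Tmsb4x encodes thymosin beta 4, the main protein that sequesters actin monomers, and Tmsb10 encodes its paralog thymosin beta 10. Tmsb4x (chrX:167207093-167209315) stood at 11477, 8852 and 7956 TPM, highest in replicate 1. Tmsb10 (chr6:72957347-72958748) ran the other way, at 1793, 2156 and 2923 TPM, highest in replicate 3. Their coding sequences, without the stop codon, are 132 bases each and differ at 40 positions, which are in capitals.
Tmsb4x: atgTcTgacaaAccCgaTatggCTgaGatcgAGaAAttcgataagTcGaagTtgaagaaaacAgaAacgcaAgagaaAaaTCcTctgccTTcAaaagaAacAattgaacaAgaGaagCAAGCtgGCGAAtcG
Tmsb10: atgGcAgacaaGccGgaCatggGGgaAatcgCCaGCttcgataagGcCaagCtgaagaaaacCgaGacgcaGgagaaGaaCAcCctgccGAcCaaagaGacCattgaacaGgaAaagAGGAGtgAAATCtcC
Identity was 69.7%, with no shared run over 10 bases. Tmsb4x exceeded Tmsb10 by 2.68, 2.04 and 1.44 on the log2 scale (2.05 ± 0.617, SD, n = 3). The share of Tmsb10 among the pair was 13.5%, 19.6% and 26.9%, so of the 20 gene pairs compared here this one had the widest range between libraries, 1.23 on the log2 scale. In the alignment-free tables the order of the libraries was the same for Tmsb10 (1446, 1851 and 2192 TPM) and for Tmsb4x (8383, 7599.5 and 6069 TPM).

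Cofilin 1 (Cfl1), which severs aged filaments, and profilin 1 (Pfn1), which feeds monomers to growing ends, were at nearly the same level. Cfl1 stood at 1461, 1504 and 1198 TPM and Pfn1 at 1526, 1425 and 1105 TPM. The log2 difference was -0.06, 0.08 and 0.12, with both signs among the libraries. Without replicate 1 the mean of 0.10 was of 1 sign and more than 2 SD. Cap1, the cyclase-associated protein that recharges actin monomers, stood at 459, 497 and 466 TPM. On counts scaled with edgeR's TMM factors (trimmed mean of M-values) its coefficient of variation over the libraries was 1.53%, the lowest of the 45.

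The Arp2/3 complex has 7 subunit positions, 2 of which can be filled by either of a pair of paralogs. Summed over its 9 genes it stood at 4709, 4645 and 4320 TPM (4558 ± 208, SD, n = 3). None of the 9 genes was past 1.5-fold between the highest and lowest TPM, but on TMM-scaled counts Arpc1b was (1.54-fold, highest in replicate 1). Arpc3 was the most abundant subunit at 974, 1073 and 877 TPM, followed by the actin-related protein Actr3 at 835, 983 and 886 TPM. Arpc4 was the lowest position at 320.3, 354 and 275 TPM. Arpc2, the scaffold partner of Arpc4, stood at 684 ± 37.6 TPM.

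The actin-related proteins Actr2 and Actr3, which form the first subunits of the new branch, were unequal. Actr2 stood at 514, 447 and 477 TPM, below Actr3 in every library, and Actr3 was 1.88-fold higher (log2 0.91 ± 0.219, n = 3). At the Arpc1 position Arpc1b stood at 565, 382 and 418 TPM and Arpc1a at 47.8, 43.1 and 42.0 TPM. Arpc1b, the form of blood cells, thus exceeded Arpc1a 10.1-fold (log2 3.34 ± 0.209). At the Arpc5 position Arpc5 stood at 734, 632 and 685 TPM and Arpc5l at 16.95, 21.7 and 19.5 TPM. Arpc5 was 35.2-fold higher (log2 5.14 ± 0.286), the widest gap of the 20 pairs. The coding sequences of the paralogs were 71.4% identical for Arpc1b and Arpc1a and 69.5% for Arpc5 and Arpc5l, with no shared run over 21 bases in either pair.

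**Figure D2:**
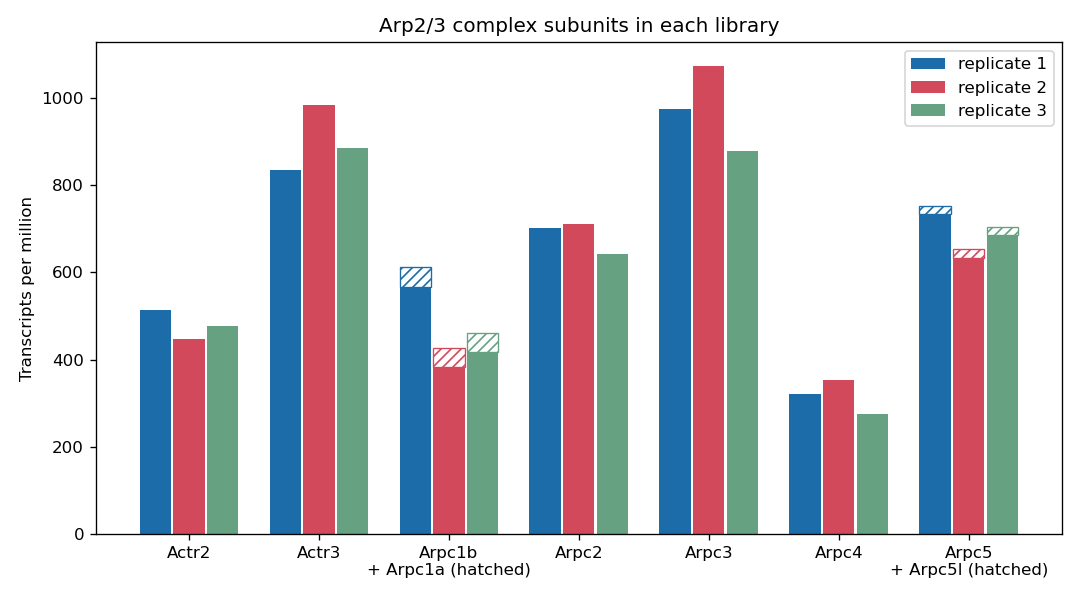
Level of each subunit position of the Arp2/3 complex (y axis, TPM) in replicates 1, 2 and 3 (bar colours), with the minor paralog hatched on top of the major one. Positions run from 316 TPM for Arpc4 to 975 TPM for Arpc3, and Arpc1a and Arpc5l make up 9.02% and 2.78% of theirs.

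Was, Wipf1 and Wasf2, which act in switching the Arp2/3 complex on, and the formin Diaph1 were at lower levels than 7 of its 9 subunit genes. This did not hold for every activator. Hcls1 and the WAVE subunit Nckap1l, given below, were above the subunit Arpc4 in every library. Was encodes WASP, an activator found in blood cells, and stood at 56.2, 68.5 and 69.1 TPM. Its chaperone Wipf1 stood at 55.6, 54.4 and 73.3 TPM. Wasf2, a WAVE protein, stood at 45.7, 42.8 and 40.2 TPM, and Diaph1, a formin that elongates unbranched filaments, at 43.4, 41.3 and 47.7 TPM. Was exceeded Wasf2 in all 3 libraries (log2 0.30, 0.68 and 0.78), but Was and Wipf1 did not differ in 1 direction (log2 0.02, 0.33 and -0.09). The margin of Was over Wasf2 was no longer more than 2 SD without replicate 2 (0.54) or without replicate 3 (0.49).

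Vasp and Evl belong to the Ena/VASP family, which keeps capping protein off growing ends. Evl stood at 514, 514 and 563 TPM and Vasp at 351, 314 and 251 TPM. In TPM Evl was above Vasp in every library, with a log2 difference of Vasp over Evl of -0.81 ± 0.318 (n = 3). That margin was not more than 2 SD without replicate 2 (-0.86). On TMM-scaled counts Vasp stood at 449, 389 and 321 and Evl at 325, 311 and 351. Vasp was thus the higher on that scale in replicates 1 and 2. The Evl level in TPM included 201, 183 and 201 TPM on Evl-207, a transcript model of 569 bases. The order with Evl-207 left out was not tested. The third family member, Enah, was at 0.12 ± 0.0889 TPM.

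Capping protein is a heterodimer of an alpha chain, from Capza1 or Capza2, and the beta chain from Capzb. Capza2 stood at 529.9, 499 and 509 TPM, Capza1 at 177, 178 and 169 TPM, and Capzb at 299, 388 and 297 TPM. The log2 difference of Capza1 over Capza2 was -1.55 ± 0.0570 (SD, n = 3), the steadiest of the 20 pairs. Capg, a gelsolin-family protein that caps without severing, was the most abundant gene of this group at 720.2, 1038 and 925 TPM. Gsn, which encodes gelsolin and both severs and caps, stood at 53.0, 60.4 and 63.1 TPM, so that Capg was 15.1-fold higher (log2 3.91 ± 0.173).

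Coronins bind filaments and work with the Arp2/3 complex and cofilin. Coro1b, the broadly expressed form, stood at 325, 306 and 278 TPM. Coro1a, the form known from leukocytes, stood at 70.3, 47.2 and 63.0 TPM, and Coro1c at 54.9, 47.4 and 58.8 TPM. Coro1b was above Coro1a in every library (log2 of Coro1a over Coro1b -2.35 ± 0.303) and above Coro1c (log2 2.50 ± 0.231). Coro1a and Coro1c were not separated (log2 0.36, -0.01 and 0.10).

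Of the bundling and cross-linking genes Lcp1 led. It encodes L-plastin, the plastin of blood cells, and stood at 906, 1103 and 829 TPM. Flna, for filamin A, which joins filaments at wide angles, stood at 242, 247 and 220.1 TPM. The alpha-actinins Actn1 and Actn4 stood at 61.1, 109 and 67.2 TPM and at 51.5, 56.5 and 55.2 TPM. Actn1 was above Actn4 in every library (log2 of Actn4 over Actn1 -0.25, -0.95 and -0.28), but the mean of -0.49 was within 2 SD (SD 0.398). Without replicate 2 the mean was -0.26 and exceeded 2 SD. Fscn1 encodes fascin, which packs filaments into tight parallel bundles, and was the lowest of this group at 44.1, 36.1 and 18.5 TPM. Lcp1 was 30.3-fold higher (log2 4.92 ± 0.560).

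Ezrin, radixin and moesin tie actin to the plasma membrane, and the moesin RNA was the most abundant of the 3. Msn stood at 616, 688 and 633 TPM, ezrin (Ezr) at 38.7, 32.6 and 24.7 TPM and radixin (Rdx) at 37.5, 36.5 and 40.5 TPM. Msn exceeded Ezr 20.4-fold (log2 4.35 ± 0.343) and Rdx 16.9-fold (log2 4.08 ± 0.138). Ezr and Rdx were not separated (log2 0.05, -0.16 and -0.71). The coding sequences of Msn, Ezr and Rdx were 69.7% to 72.3% identical in pairs.

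Talin 1 (Tln1), which links integrins to actin, stood at 201, 158 and 168 TPM. Vinculin (Vcl), which reinforces the talin bond, was the lowest of all 45 genes at 2.14, 2.39 and 2.01 TPM. Its counts were 185, 281 and 320.4, and its posterior standard deviation of 1.94% to 2.33% of the count was the only one above 1% among the genes with 1 entry.

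Nonmuscle myosin II is built from a heavy chain, here Myh9, an essential light chain, Myl6, and a regulatory light chain, Myl12a or Myl12b. Myl6 stood at 1143, 1606 and 1280.1 TPM, highest in replicate 2. Myh9 stood at 60.9, 47.3 and 50.3 TPM. In TPM every Myl6 value lay above every Myh9 value. TPM divides counts by transcript length, and the leading transcripts had 665 bases for Myl6 and 7433 for Myh9. Counts were nearer, at 8326, 14600 and 15928 for Myl6 and 7472, 7932 and 11347 for Myh9. Evenness of read coverage along long and short transcripts was not tested.

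The 2 regulatory light chain genes are neighbours on chromosome 17, and the level of each rests on how shared sequence was divided. Myl12a stood at 409.7, 454 and 318 TPM. Of the Myl12b entries, the first (chr17:70973133-70990890, minus strand) stood at 196, 209.9 and 208 TPM. The other entry (chr17:70974119-71002208, minus strand) stood at 413, 470.2 and 411 TPM. That entry holds Myl12b-205 (837 bases, at 35.6, 39.5 and 38.0 TPM), which was not compared here, and its leading transcript, Myl12b-206. Myl12b-206 has 4 exons, and 462 of its 636 bases lie in exons of Myl12a, with only its last exon in those of Myl12b-204. The first 90 coding bases show it: capitals mark bases that differ from Myl12a.
Myl12a-208: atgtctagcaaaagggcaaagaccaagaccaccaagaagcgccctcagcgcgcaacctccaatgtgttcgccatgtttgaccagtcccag
Myl12b-206: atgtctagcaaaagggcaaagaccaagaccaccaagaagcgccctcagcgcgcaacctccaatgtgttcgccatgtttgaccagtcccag
Myl12b-204: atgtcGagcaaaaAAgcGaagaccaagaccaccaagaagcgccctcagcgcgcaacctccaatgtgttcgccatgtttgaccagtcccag
Over all 516 coding bases Myl12b-206 differed from Myl12a-208 at 1 base and Myl12b-204 at 18. With both entries summed Myl12b stood at 609.7, 680.2 and 619.6 TPM and exceeded Myl12a (log2 of Myl12a over Myl12b -0.71 ± 0.222). With the first entry alone, an alternative added after seeing the data, the sign turned and Myl12a was above Myl12b by 0.93. The posterior standard deviation was 2.58% to 3.52% of the count for the first entry and 1.87% to 2.39% for the other. Which of the light chain genes was higher could therefore not be read from these files.

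Vim encodes vimentin, the intermediate filament of macrophages, and was included as the partner network. It stood at 1865, 3022 and 2162 TPM, highest in replicate 2.

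**Figure D3:**
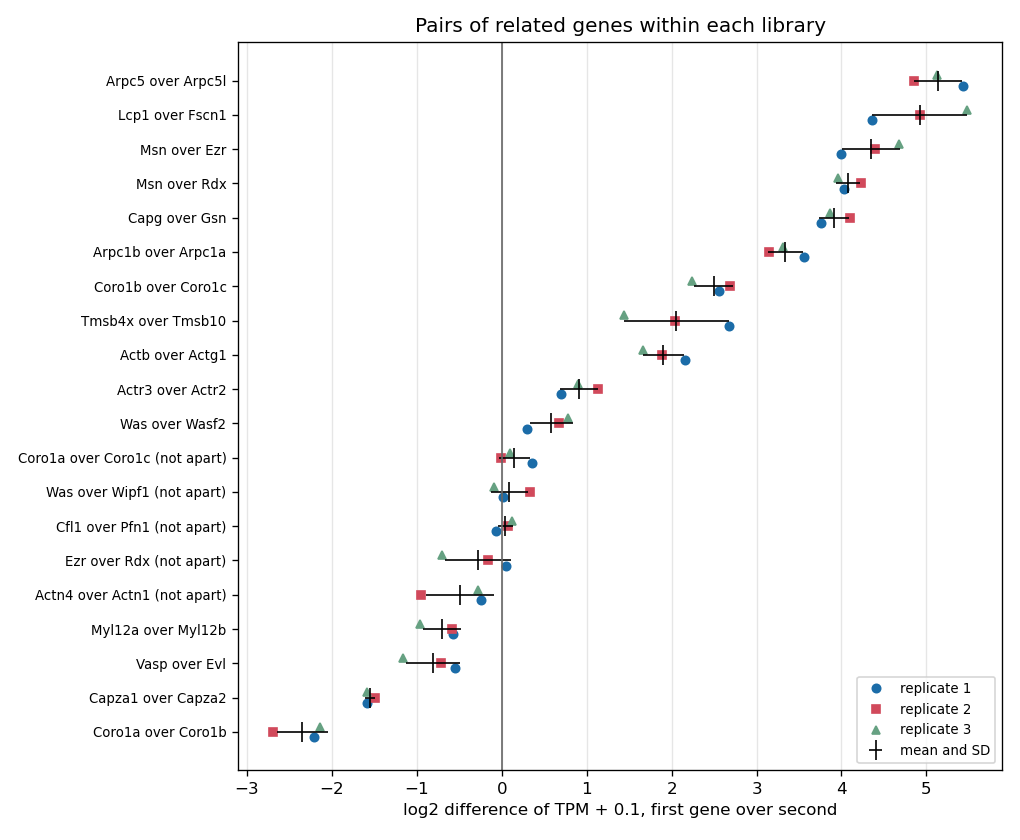
Log2 difference of TPM + 0.1 between the genes of 20 pairs (x axis) in replicates 1, 2 and 3 (circle, square and triangle), with the mean and SD over the 3 libraries in black. In 15 pairs all libraries lie on 1 side of 0 and the mean exceeds 2 SD, and the other pairs are marked as not apart. Myl12b is drawn with both entries summed, and its order to Myl12a turned with the first entry alone.

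A pair was called apart where all 3 libraries had the same sign and the mean exceeded 2 SD. By that rule 15 of the 20 pairs were apart in TPM. They include Myl12a with Myl12b, whose order turned with the choice of Myl12b entry and was left unsettled above. They also include Vasp with Evl, which stood in the other order on TMM-scaled counts in replicates 1 and 2. No test was attached to it, because 3 paired differences cannot give a two-sided exact sign-flip p below 0.25. The pairs not apart were Cfl1 with Pfn1, Coro1a with Coro1c, Ezr with Rdx, Was with Wipf1 and Actn4 with Actn1.

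The libraries differed by more than counting noise for most of the genes. With edgeR's likelihood ratio test of the 3 libraries at dispersion 0, and Benjamini-Hochberg adjustment, 42 of 45 genes were called at an adjusted p under 0.05, against 70.9% of all 12413 genes tested. Counts this high show small differences: where the mean reached 1000 counts the share called was 90.8%, and 42 of the 43 actin cytoskeleton genes at that level were called. The 3 genes not called were Arpc5l (adjusted p = 0.161), Vcl (0.285) and Actn4 (0.325), by the same edgeR test.

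In size the spread was small. Only 6 of the 45 genes reached 1.5-fold between the highest and the lowest TPM, against 33% of all detected genes and 24.7% of those with a mean of at least 10 TPM. The median coefficient of variation on TMM-scaled counts was 10.6% for the 45 genes and 16.6% for all genes tested. It was under 16.6% for 35 of the 45. The genes tested included any with a mean count of at least 10, while 43 of the 45 had a mean of at least 1000. These medians thus do not compare genes of like depth. On TMM-scaled counts the steadiest after Cap1 were Actn4 (1.82%), Msn (2.87%) and Myl12b with both entries summed (3.19%). In TPM of the alignment-free quantification, Cap1, Actn4, Msn and Myl12b spanned 1.37-, 1.47-, 1.47- and 1.27-fold between libraries.

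Fscn1 had the widest spread, 2.38-fold in TPM, with replicate 3 well below the other libraries. It was 2.17-fold on TMM-scaled counts and 2.25-fold in the alignment-free quantification. Fascin is also known from mature dendritic cells. Of the 7 dendritic cell markers 3 were detected, Ccl22 (29.8, 126 and 32.0 TPM) and Ccr7 (4.16, 17.8 and 4.68 TPM), highest in replicate 2, and Batf3 (8.18, 7.92 and 6.66 TPM), highest in replicate 1 as Fscn1 was. The part of such cells in the level of Fscn1 was not tested. Ezr followed the order of Fscn1, with 1.56-fold between replicates 1 and 3, and 1.49-fold in TPM rescaled without ribosomal RNA and mitochondrial genes. Actb also had its lowest value in replicate 3 (1.59-fold), and Tmsb10 its highest (1.63-fold).

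Actn1 and Vim were past 1.5-fold through replicate 2. Actn1 was 1.79-fold higher there than in replicate 1, and 1.66-fold on TMM-scaled counts. In TPM, 21 of the 45 genes were highest in replicate 2, beside 45.2% of all genes tested. Besides Actn1 and Vim they included Capg, Myl12a, Myl6, Lcp1 and Capzb, by 1.44-, 1.43-, 1.41-, 1.33- and 1.31-fold over the lowest library. Replicate 2 was the library with the most neutrophil and platelet marker RNA (summed 428 and 872 TPM). Most of the platelet sum was Pf4, at 228, 859 and 223 TPM in replicates 1 to 3. The part of neutrophils and platelets in the levels of Actn1, Vim, Capg, Myl12a, Myl6, Lcp1 and Capzb was not tested. Without replicate 2, Actn1 and Vim were within 1.5-fold and 4 genes remained past it (11.5% of all genes): Actb, Tmsb10, Fscn1 and Ezr. Without replicate 1 only Fscn1 and Actn1 were past it (16.3% of all genes), and without replicate 3 only Actn1 and Vim (24.7%).

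**Figure D4:**
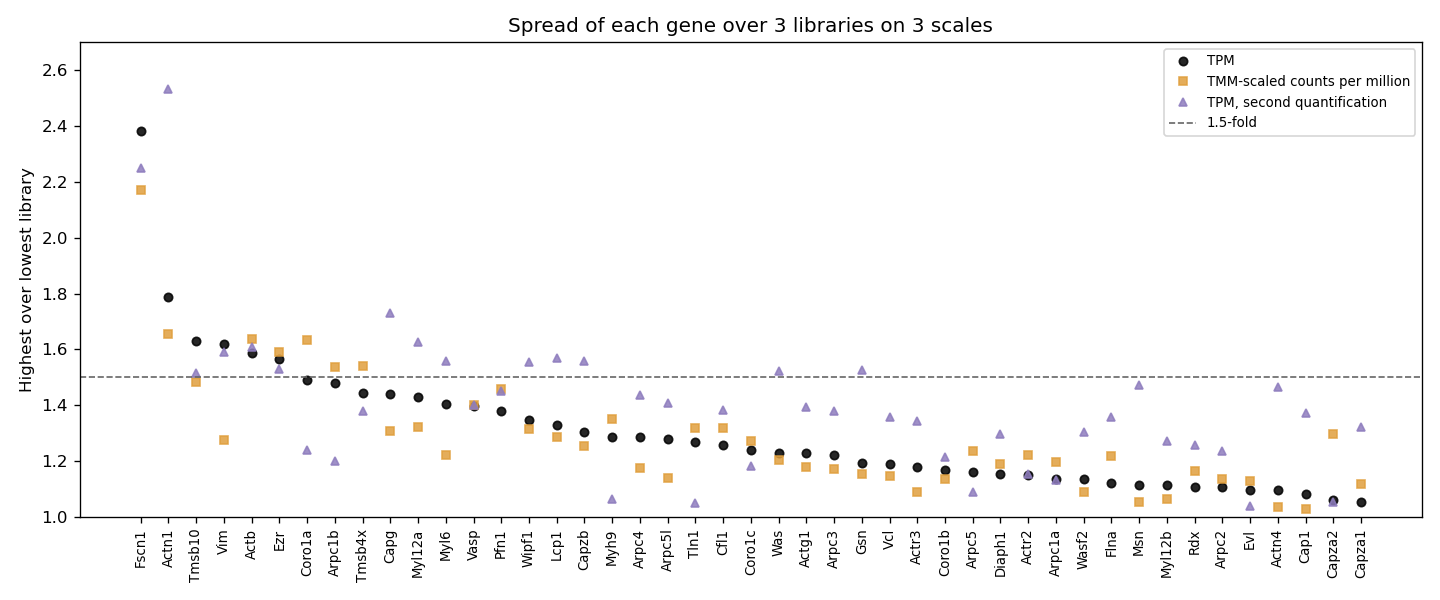
Ratio of the highest to the lowest library (y axis) for each gene on 3 scales: TPM (black circles), TMM-scaled counts (orange squares) and TPM of the alignment-free quantification (purple triangles), ordered by the TPM ratio. Fscn1, Actn1, Actb and Ezr lie above the dashed 1.5-fold line on every scale, and Vim falls to 1.28 on scaled counts.

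Which genes passed 1.5-fold depended on the scale. On TMM-scaled counts 7 genes passed (28.3% of genes): Actb, Tmsb4x, Arpc1b, Coro1a, Fscn1, Actn1 and Ezr. Tmsb10 (1.48-fold) and Vim (1.28-fold) did not. In TPM rescaled without ribosomal RNA and mitochondrial genes 5 passed (33.3% of genes), all of the 6 but Ezr. In the alignment-free quantification 14 passed (42.8% of genes), on a scale where the median gene was 0.36 higher in replicate 2 than in replicate 1 (log2). In that quantification 34 of the 45 genes were highest in replicate 2 (61.4% of genes), against 21 in TPM of the alignment-based one (45.2%) and 16 on TMM-scaled counts (39.1%). Replicate 3 was the lowest library for 20 genes in TPM (26.5% of genes) and for 20 on TMM-scaled counts (25.5%).

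The 45 genes have 323 annotated transcripts, and the same transcript led in all 3 libraries for 44 of them. For 26 genes the leading transcript held over 90% of the gene's TPM, and in every gene it was a protein-coding one. Actb-201 (98.6%), Tmsb4x-201 (98.9%) and Actr2-201 (99.6%) are examples. The lead was under 50% for Cap1, Evl and Wipf1.

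Evl was the gene whose leading transcript differed between libraries. Evl-206 held 36.6%, 43.1% and 43.6% and Evl-207, a short model of 569 bases, 39.1%, 35.6% and 35.7%, so that Evl-207 led in replicate 1 in both quantifications. In Cap1, Cap1-201 held 39.6%, 40.7% and 35.2% and Cap1-203 26.5%, 29.9% and 32.6%. The alignment-free quantification put Cap1-203 first in replicates 2 and 3. In Arpc4, Arpc4-204 held 44.6%, 62.3% and 53.1%, while the alignment-free quantification put Arpc4-203 first in replicate 1 (43.2% against 41.7%). In Diaph1, Diaph1-205 held 76.5%, 52.3% and 62.5%, lowest in replicate 2, and led in every library of both quantifications.

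Some TPM of these genes lay on transcripts that encode no protein. Vim-203, a retained-intron model of 535 bases, held 20.1%, 34.1% and 27.7% of Vim TPM in the alignment-based quantification and 24.6%, 16.1% and 8.3% in the other. Vim differed 1.62-fold between libraries in TPM, 1.59-fold in TPM of the alignment-free quantification and 1.28-fold on TMM-scaled counts, a scale that differs from TPM in both length weighting and library scaling. Flna-215, a processed transcript of 738 bases, held 22.4%, 25.5% and 25.3% of Flna in the former and 1.79%, 0% and 0.31% in the latter, and Flna had a mean of 236 TPM in the former and 138 TPM in the latter, the largest relative gap of the 45 genes (log2 -0.78). Actn4-206 held 26.25%, 23.96% and 33.21% in the former and 22.9%, 21.8% and 31.1% in the latter. Retained-intron models held 24.8%, 22.9% and 17.1% of Coro1b in the former and 41.4%, 17.6% and 22.0% in the latter. They held 9.83%, 9.7% and 11.98% of Coro1a in the former and 17.3%, 13.2% and 18.0% in the latter.

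**Figure D5:**
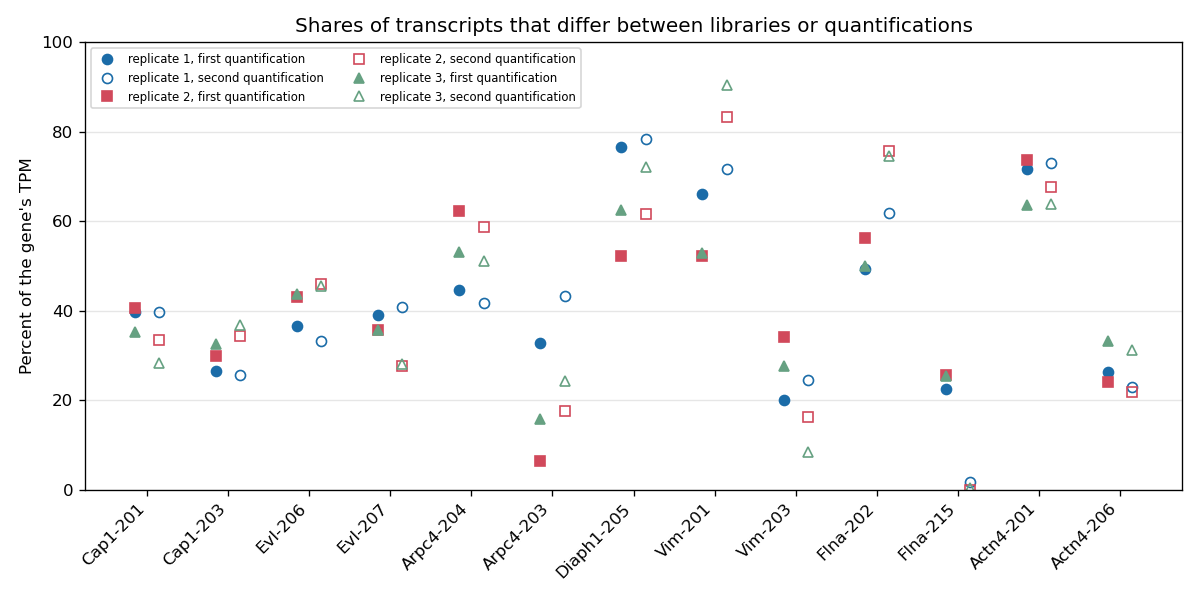
Share of the gene's TPM (y axis, percent) held by 13 transcripts of 7 genes in replicates 1, 2 and 3, in the alignment-based (filled, first) and alignment-free (open, second) quantification. Evl-207 lies above Evl-206 only in replicate 1, and Flna-215 falls from 22.4% or more to 1.79% or less between quantifications.

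Actin and many of its partners are known targets of serum response factor, which binds the CArG box, CC and GG with 6 bases of A or T between them, the same on both strands. The box was searched in RefSeq promoters (GRCm38.p6) from 250 bases before to 50 after the gene start, which matched 41 of the 45 genes, all but Actb, Arpc5l, Coro1b and Diaph1. It was found in 4 of the 41 (9.76%) and in 1.81% of all 27025 genes with a promoter. The box is in capitals in its surroundings, upstream of the RefSeq start of each gene. For Myl6 the stretch lies inside the gene as the GENCODE M21 annotation places it (chr10:128490860-128494145, minus strand).
Actg1 (chr11:120348556-120348605, minus strand): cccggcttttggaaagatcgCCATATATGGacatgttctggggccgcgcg
Vcl (chr14:20929151-20929200, plus strand): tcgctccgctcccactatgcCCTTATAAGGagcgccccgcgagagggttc
Myl6 (chr10:128493030-128493079, minus strand): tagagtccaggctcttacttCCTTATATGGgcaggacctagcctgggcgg
Arpc4 (chr6:113377863-113377892, plus strand): CCTAATTTGGtgcccaacctgaggtcgggc
The box began 90 bases before the start of Actg1, 227 before Vcl, 50 before Myl6 and 250 before Arpc4, at the edge of the window. The 4 genes ran from Vcl at 2.18 ± 0.193 TPM to Actg1 at 3163 ± 325 TPM, the third most abundant of the 45. A match of letters is a description, not a site of binding. An NF-kB motif, GGG and TTTCC with any 2 bases between them, was found on either strand in 3 of the 41 (Capzb, Rdx and Vim) and in 1.89% of all genes, and GAGGAAGT, an ETS-type motif, in 1 (Arpc1b) and in 3.69%.

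Of 90 other genes of actin regulation, 64 reached 1 TPM in every library, 62 of 71 tested were called by the edgeR test between libraries (70.9% of all genes), and 12 of the 64 were past 1.5-fold (33% of all detected genes). Among further monomer-binding genes 7 of 10 were detected, led by the cofilin relative Dstn at 89.0 ± 11.1 TPM and Twf1, twinfilin, at 44.1 ± 5.91 TPM, with Cap2 lowest at 0.0333 TPM. Of the WAVE complex and other activators 11 of 14 were detected, led by Hcls1, the blood-cell cortactin, at 417 ± 39.7 TPM and the WAVE subunit Nckap1l at 372 ± 9.90 TPM, with Wasf1 lowest at 0.00333 TPM. Formins and elongation factors were detected in 6 of 8, led by Diaph2 at 23.2 ± 0.607 TPM and Fmnl2 at 20.4 ± 1.62 TPM, with Enah lowest. Of other coronins, tropomyosins, cappers and bundlers 11 of 19 were detected, led by the tropomyosins Tpm3 at 659 ± 58.3 TPM and Tpm4 at 598 ± 41.0 TPM, with Flnc at 0.

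Other myosins were detected in 6 of 9, led by the membrane-bound motor Myo1f at 123 ± 10.6 TPM and Myo5a, a vesicle motor, at 100.1 ± 7.81 TPM, with Myh14 at 0. Of other linkers 7 of 8 were detected, led by Marcksl1 at 1234 ± 273 TPM and Marcks at 290.5 ± 69.0 TPM, both of which bind actin and the membrane, with Tln2 lowest at 0.0633 ± 0.0404 TPM.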

How the data were processed

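PolyA RNA-seq was deposited for 3 macrophage libraries, 1 group. Per the file headers, the authors gave expected counts, TPM and a posterior standard deviation of the count for each gene and transcript, quantified from a transcriptome alignment (mm10, GENCODE M21). They also deposited the percent of each gene's TPM on every transcript. The authors' other transcript table, made from the reads without an alignment, gave estimated counts and TPM, and was summed per gene. The aligner, the quantifier and any strand setting were not given in the sources used.

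Samples were grouped by the labels. Gene symbols came from GENCODE M21, and the 2 Myl12b entries were summed. TPM was used for levels, with a pseudocount of 0.1 for log2 differences. Rounded expected counts of genes with a mean of at least 10 were tested with edgeR 4.0.16 (TMM, dispersion 0, likelihood ratio test with 2 degrees of freedom, Benjamini-Hochberg), because 1 group leaves no residual spread for the quasi-likelihood test. Counts were also simulated with counting noise only, as the test assumes, and with changes in replicate 2 alone. On these, the test called 81% of 100 genes changed 1.5-fold, 88% of 100 changed 2-fold, and 0.0984% of 12197 unchanged genes. The low share of unchanged genes called follows from that setting and does not carry over to real libraries. Ribosomal RNA genes took 1.71% to 6.42% and mitochondrial genes 3.84% to 5.16% of TPM.

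The 45 genes and all gene, marker and pair lists were chosen with earlier results of these data known. All 45 genes are named. Values in each library are given for the 2 highest and the lowest gene of each role, both genes of a pair, genes past 1.5-fold and genes whose leading transcript changed. Other lists give the 2 highest and the lowest gene, and marker lists the highest and the lowest. 1 list of other genes is not reported here. Alternatives were DESeq2 1.42.0 size factors, a chi-square test, other filters and pseudocounts, TPM rescaled without ribosomal and mitochondrial genes, the alignment-free tables, and leaving out each replicate.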

Additional observations from a re-analysis of the deposited data

How the results depend on the processing

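The median level of the 45 genes (8.36 on the log2 scale) stayed between 8.19 and 8.48 under the alternatives run. The counts of genes called between libraries (36 to 42), pairs apart (13 to 16) and genes with a constant leading transcript (42 to 45) stayed within 1.5 times. Without replicate 1, 2 or 3, 39, 36 and 37 of the 45 were called, beside 56.8%, 42.1% and 61.2% of all genes tested. The number past 1.5-fold was 14 in the alignment-free quantification (42.8% of genes) and 2 to 4 with a replicate left out (4 without replicate 2). With a replicate left out the share of all genes was 11.5% to 24.7%. Of the 45, 1 gene, Fscn1, was past 2-fold (10% of all detected genes). The difference of Myl12a over Myl12b turned to 0.93 with the first Myl12b entry alone, as the construction of that alternative removes the other entry. Without replicate 1, or in the alignment-free quantification, Cfl1 over Pfn1 was apart (log2 0.10 and 0.23). With a limit of 3 SD, Vasp with Evl and Was with Wasf2 were not apart. No paired analysis was possible because the series has 1 group. Depth limits Vcl, with 185 to 320.4 counts per library, most, since it was the only one of the 45 genes under 10 TPM.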
